A study of Mus musculus with 40 samples.

Results

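The genes described here are 10 regulators around the JAK-STAT3 pathway, the signalling route that interleukin 11 uses: the suppressors of cytokine signalling *Socs1*, *Socs2*, *Socs3* and *Cish*, the STAT3 inhibitor *Pias3*, the kinases *Pim1* and *Pim3*, and the transcription factors *Cebpb*, *Cebpd* and *Batf*. They were chosen by name, with earlier results of these data known, and all 10 were found among the 17006 named genes listed for both sexes. All 10 also passed the filter on low values in both sexes, where 16931 genes in males and 16956 in females were tested. PolyA RNA had been sequenced from mouse hearts, with 1 library per mouse. CM-Il11-Tg mice carry a tamoxifen-activated Cre recombinase under the cardiomyocyte promoter of α-myosin heavy chain (MerCreMer, MCM) and a *Rosa26-Il11* allele, both heterozygous, so that tamoxifen turns on *Il11* in cardiomyocytes. They were studied 1, 3 and 6 weeks after tamoxifen and, in an uninduced group, without tamoxifen. Controls, which the labels name WT, were age-matched littermates with the same Cre transgene and a wild-type *Rosa26* locus, and they too received tamoxifen, so only the uninduced group went without it. The labels give no age, and they call the controls baseline without a week. The same controls of each sex were therefore set against every week, and their time after tamoxifen is not known. Each sex had 5 groups of 4 mice, except that male controls and male hearts at 6 weeks had 3, because 2 male libraries carry labels that contradict each other and entered no test.

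Interleukin 11 binds its receptor together with gp130, the subunit shared by the interleukin 6 family of cytokines, and the JAK kinases attached to gp130 phosphorylate STAT3, which then switches on its target genes. Among the first targets is *Socs3*, whose protein binds gp130 and the JAKs and shuts the signal down, so its RNA is widely read as a sign of recent STAT3 activity. SOCS1 blocks JAK kinases, above all after interferon, while SOCS2 and CIS (encoded by *Cish*) are best known for damping the growth hormone, prolactin and other STAT5-activating receptors.

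*Il11* itself was at 0 to 0.147 CPM in male controls and 0 to 0.166 in female controls. CPM is the value deposited by the authors, a read count scaled by a factor of its library. The columns sum to between 817395 and 1196278, so this factor is not the library total alone. *Il11* was at 16.5 to 23.3 in uninduced male hearts and 336 to 819 in induced male hearts. In females it was at 15.5, 21.2 and 21.4 in 3 of the uninduced hearts and 49.1 in the other one, replicate 3, and at 328 to 614 in induced hearts. The libraries labelled as induced therefore all held far more *Il11* RNA than the uninduced ones, and the uninduced ones more than the controls. Depth on listed genes ran from 16663513 to 65333832 reads in males and from 19147947 to 30929192 in females. The authors scaled the sexes separately, so each was tested alone. Scaling each library to its total instead moved the median log2 fold change of all genes against control to 0.33, 0.23 and 0.16 in males and 0.28, 0.30 and 0.33 in females at 1, 3 and 6 weeks, from values within 0.03 of 0, so modest changes below are relative to the authors' scaling. Among markers of heart cell types, all 6 macrophage markers were higher at every week in both sexes, 4 or 5 of 5 fibroblast markers were higher, and 3 or 4 of 5 endothelial and 2 to 4 of 6 cardiomyocyte markers were lower. By the test given below, 13.2% to 18.9% of all tested genes in males and 15.3% to 21.7% in females were higher. Lower were 8.1% to 14.6% in males and 13.1% to 21% in females. In whole tissue, fewer cells of a type and less RNA per cell cannot be told apart.

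*Socs3* and *Cish* hold the classical STAT-binding pattern TTCNNNGAA near their RefSeq start sites, and these stretches are shown because the levels of these genes moved so differently. The pattern, which reads the same on both strands, was searched in RefSeq promoter sequences (GRCm38.p6, 250 bases before the start site to 50 after it, placed on GRCm39 by exact match). Of the 10 genes, 8 have an entry, and *Socs2* and *Cebpd* have none. The pattern occurs in 2 of the 8. *Socs3* holds 1 copy, 154 to 146 bases before the start, and *Cish* holds 2, at positions 1 to 9 and 12 to 20 from the start. Of all 32851 entries 8.298% hold at least 1 copy and 0.457% hold 2 or more. The 30 bases around them, 5′ to 3′ on the strand of the gene, have the pattern in capitals:
Socs3, chr11:117860327-117860356 (GRCm39, minus strand): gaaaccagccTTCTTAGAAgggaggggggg
Cish, chr9:107173853-107173882 (GRCm39, plus strand): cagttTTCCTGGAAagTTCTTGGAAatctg
Positions are counted from the start of the RefSeq entry, which in both genes lies inside the gene's annotated span on GRCm39 given below, and each stretch overlaps 1 annotated exon. The transcript marked as canonical on GRCm39 starts elsewhere, at 117860123 for *Socs3* and 107173225 for *Cish*. The *Cish* stretch thus lies inside the gene, after that start. The match is one of letters, and no binding was measured here.

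Expression was compared with limma on log2(CPM + 0.5), and a gene was called at a Benjamini-Hochberg adjusted p under 0.05 over all genes tested, with no minimum fold. Of the 10 genes, *Socs3*, *Socs1*, *Pim1*, *Cebpd* and *Batf* rose against control at 1, 3 and 6 weeks in both sexes. In all, 6, 5 and 5 of the 10 were called in males at 1, 3 and 6 weeks, where 33.5%, 21.3% and 27.1% of all tested genes were, and 7, 6 and 8 in females, where 28.4%, 31.3% and 42.7% were. In males the rises were 5 of 10 at each week, where 18.9%, 13.2% and 16.2% of all tested genes were called higher. In females they were also 5 of 10 at each week, against 15.3%, 16.8% and 21.7%. Since the 10 genes were chosen with earlier results of these data known, such counts are a description. *Cish* fell in males at 1 week and in females at 6 weeks, *Pim3* fell in females at every week, and *Socs2* fell in females at 1 and 6 weeks. Thus 1 of 10 was lower in males at 1 week (14.6% of all genes) and none at 3 and 6 weeks (8.1% and 10.9%), and 2, 1 and 3 of 10 were lower in females (13.1%, 14.5% and 21%), shares that are close to the background. *Cebpb* and *Pias3* were not called against control at any week in either sex. In all 6 comparisons the 5 genes that rose had every induced library above every control library, as did 22%, 18.4% and 20.4% of all male genes and 16.5%, 18.9% and 19.5% of all female genes. *Pias3*, which was not called, also lay above every control in males at 3 weeks (14.5 to 15.5 CPM against 11.8 to 14.2). Below every control lay *Pim3* in females at 1 and 3 weeks, *Cebpb* in females at 3 weeks and *Socs2* in females at 6 weeks, where 16.2%, 18.6% and 17.9% of all female genes did so at 1, 3 and 6 weeks.

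**Figure D1:**
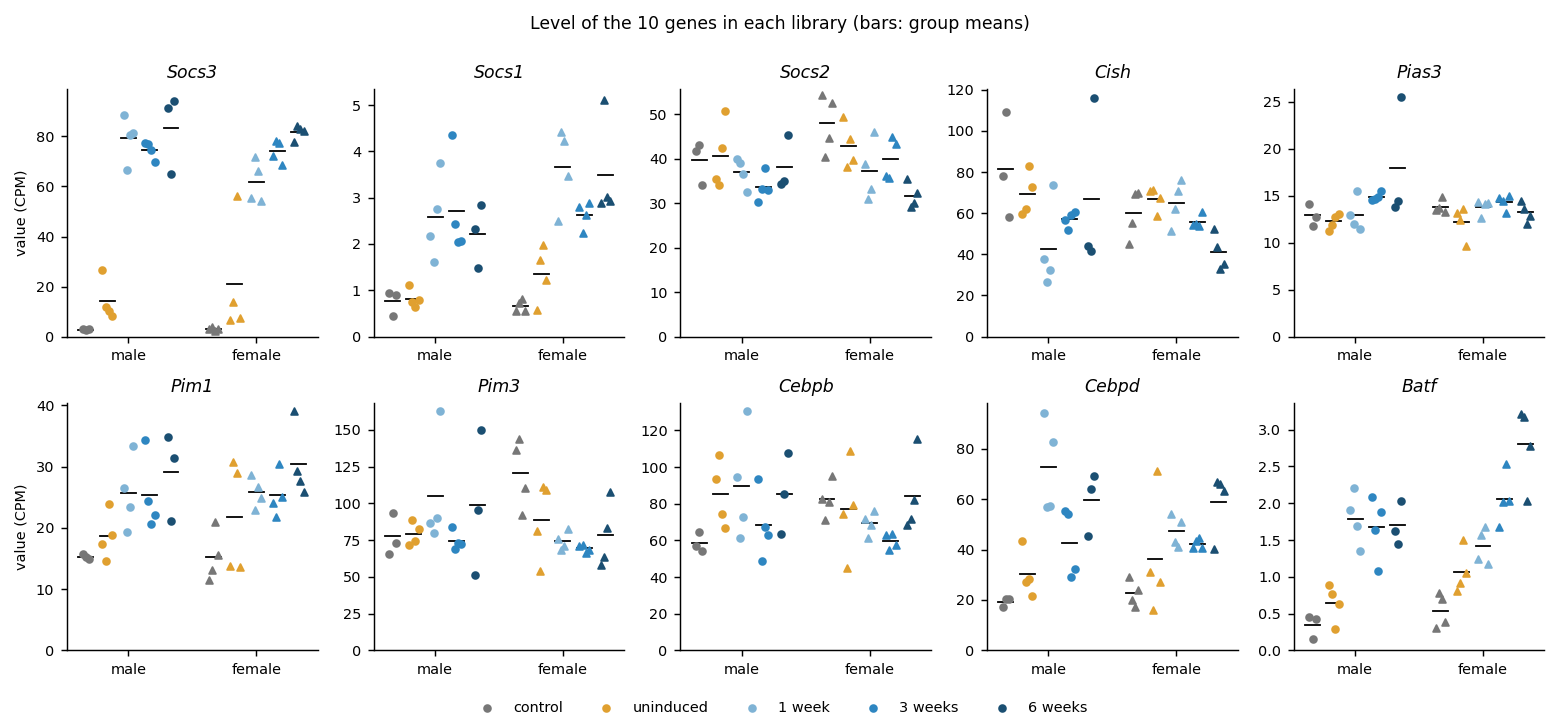
Value (CPM, linear axis from 0) of each gene in each library, circles for males and triangles for females, coloured by group, with a bar at the group mean. *Socs3* is the gene with the widest gap between control and induced hearts, and uninduced hearts sit between them, with female replicate 3 at 56.1.

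*Socs3* (ENSMUSG00000053113, chromosome 11, 117856905 to 117860898, minus strand) moved most. Male controls held 2.85, 2.69 and 2.90 CPM, while male hearts held 88.4, 66.8, 80.5 and 81.5 at 1 week, 77.5, 76.8, 74.8 and 69.6 at 3 weeks, and 91.4, 65.0 and 94.4 at 6 weeks. Female controls held 3.01, 3.68, 2.40 and 2.99, and the female values were 55.5, 71.9, 66.1 and 54.1 at 1 week, 72.2, 78.3, 77.5 and 68.7 at 3 weeks, and 77.7, 84, 83 and 82.1 at 6 weeks. No induced library of either sex came below 54.1, and no control came above 3.68. The ratio of group means to control was 28.2, 26.6 and 29.7 in males and 20.5, 24.5 and 27.0 in females at 1, 3 and 6 weeks. On the log2 scale the male changes were 4.58, 4.50 and 4.65 (standard errors 0.25, 0.25 and 0.26, limma adjusted p = 9.32e-11, 9.66e-11 and 1.76e-10). The female changes were 4.15, 4.42 and 4.56 (standard error 0.39 each, limma adjusted p = 7.77e-08, 2.59e-08 and 1.19e-08). At each week *Socs3* stood above percentile 99.7 of the log2 fold changes of all genes tested. In the order of significance it stood at 15, 20 and 21 in males and 240, 244 and 306 in females, whose standard error includes the spread of the uninduced hearts.

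*Socs1* (ENSMUSG00000038037, chromosome 16, 10600104 to 10603875, minus strand) was scarce but also rose. Male controls held 0.937, 0.454 and 0.896 CPM (12 to 55 reads). The male values were 2.18, 1.61, 2.76 and 3.75 at 1 week, 4.36, 2.42, 2.04 and 2.06 at 3 weeks, and 2.33, 1.48 and 2.85 at 6 weeks. Every induced male heart was above the controls, though the lowest, at 1.48, was close to them. Female controls held 0.56, 0.726, 0.80 and 0.554 (10 to 16 reads), against 2.49, 4.43, 4.22 and 3.47 at 1 week, 2.79, 2.24, 2.62 and 2.88 at 3 weeks, and 2.89, 5.11, 3.02 and 2.93 at 6 weeks. The log2 fold changes were 1.26, 1.32 and 1.10 in males (standard errors 0.26 to 0.28, limma adjusted p = 0.00105, 0.000972 and 0.00628) and 1.82, 1.43 and 1.75 in females (standard error 0.22, limma adjusted p = 2.57e-06, 4.36e-05 and 2.63e-06). At such low values the added 0.5 makes these fold changes smaller than the ratios of group means, which were 3.4, 3.57 and 2.91 in males and 5.53, 3.99 and 5.29 in females. Female replicate 2 at 6 weeks, with 5.11, also held atrial marker RNA (*Myl7* and *Myl4* sum to 729 CPM, against 1.02 as the lowest female 6-week library). Without it the female change of *Socs1* at 6 weeks was 1.58 (limma adjusted p = 1.74e-05). Female replicate 2 at 1 week, with 4.43, held 119 CPM of the same markers against a group median of 1.88, and without it the change of *Socs1* at 1 week was 1.73 (limma adjusted p = 1.92e-05). Leaving out that 1-week library ended no other call against control at 1 week than that of *Socs2*.

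*Cish* (ENSMUSG00000032578, chromosome 9, 107173225 to 107179983, plus strand), the SOCS-family gene with 2 copies of the STAT pattern at its RefSeq start, did not follow *Socs3* and *Socs1*. In males it was at 78.0, 109 and 57.9 CPM in controls, 37.8, 26.6, 32.5 and 73.9 at 1 week, 56.8, 51.6, 59.2 and 60.4 at 3 weeks, and 43.8, 41.5 and 116 at 6 weeks. Of the male hearts at 1 week 3 lay below every control, and replicate 4 lay among them. The male fall at 1 week was −0.99 (standard error 0.32, limma adjusted p = 0.0211), a call that was lost when control replicate 1, control replicate 3, 1-week replicate 2 or 1-week replicate 3 was left out (smallest change −0.76), while without 1-week replicate 4 it was −1.29 (limma adjusted p = 0.00221). In females *Cish* was at 44.8, 55.3, 69.4 and 70.0 in controls, 51.4, 61.9, 70.8 and 76.1 at 1 week, 54.1, 54.9, 53.6 and 60.4 at 3 weeks, and 52.2, 43.7, 32.8 and 35.4 at 6 weeks. It fell at 6 weeks by 0.54 on the log2 scale (standard error 0.15, limma adjusted p = 0.00722), although female replicate 1 at 6 weeks overlapped the controls. Male replicate 4 at 6 weeks held 116. It was the library with the most *Il11* (819 CPM) and the most reads of any induced heart (49961134). Without this library the male change at 6 weeks went from −0.40 (limma adjusted p = 0.404) to −0.88 (limma adjusted p = 0.0352). Scaled to library totals, the male fall at 1 week (−0.64, limma adjusted p = 0.0953) and the female fall at 6 weeks (−0.14, limma adjusted p = 0.431) were not called, and at 1 week the female value became 0.47 (limma adjusted p = 0.0163).

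*Socs2* (ENSMUSG00000020027, chromosome 10, 95219523 to 95253929, minus strand), the feedback inhibitor of growth hormone signalling, was called lower in females at 1 and 6 weeks and in no male comparison. Female controls held 54.4, 40.3, 44.6 and 52.5 CPM. The female values were 38.9, 31.0, 33.2 and 46 at 1 week, 36.0, 35.7, 45 and 43.3 at 3 weeks, and 35.4, 29.2, 30.03 and 32.2 at 6 weeks. At 6 weeks every female heart was below every control, and at 1 and 3 weeks the groups overlapped. The female changes were −0.37, −0.26 and −0.58 (standard error 0.13, limma adjusted p = 0.0363, 0.135 and 0.00105). The male values, 30.3 to 50.7 over all 5 groups, gave −0.10, −0.23 and −0.06 (limma adjusted p = 0.630, 0.272 and 0.803). Scaled to library totals, the female changes at 1 and 6 weeks were −0.02 and −0.19 (limma adjusted p = 0.915 and 0.254), so neither was called there. The call at 1 week was also lost without control replicate 1, control replicate 4, or 1-week replicate 2 or 3 (smallest change −0.28).

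*Pias3* (ENSMUSG00000028101, chromosome 3, 96603700 to 96613386, plus strand) encodes a SUMO ligase that binds activated STAT3 and keeps it from DNA. Female libraries of all groups ran from 9.63 to 14.9 CPM, with controls at 13.4, 13.7, 14.8 and 13.3 and 6-week hearts at 14.5, 13.6, 12 and 12.8. Male controls held 14.2, 11.8 and 12.7, and male hearts at 6 weeks held 13.8, 14.5 and 25.6. The highest value again came from male replicate 4 at 6 weeks. The changes against control were 0.00, 0.20 and 0.41 in males and −0.00, 0.05 and −0.06 in females at 1, 3 and 6 weeks, with adjusted p of at least 0.0906 in limma, but scaled to library totals *Pias3* was called higher in females at all 3 weeks (0.33, 0.39 and 0.32) and in males at 3 and 6 weeks (0.46 and 0.59), beside the shifts of the median gene given above.

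*Pim1* and *Pim3* encode serine/threonine kinases that are active as soon as they are made, and *Pim1* is a classical STAT3 and STAT5 target. Neither protein nor kinase activity was measured here. *Pim1* (ENSMUSG00000024014, chromosome 17, 29709581 to 29715086, plus strand) was at 15.8, 15.2 and 15 CPM in male controls, 26.5, 19.3, 23.4 and 33.4 at 1 week, 34.3, 24.3, 20.6 and 22 at 3 weeks, and 34.9, 21.1 and 31.4 at 6 weeks. In females it was at 11.5, 13.1, 20.9 and 15.6 in controls, 28.6, 23.0, 26.6 and 24.9 at 1 week, 24.0, 21.7, 30.3 and 25.1 at 3 weeks, and 39.0, 29.3, 27.7 and 25.8 at 6 weeks. All induced hearts exceeded all controls of their sex. The rises were 0.70, 0.68 and 0.87 on the log2 scale in males (standard errors 0.20 to 0.22, limma adjusted p = 0.0122, 0.0207 and 0.00524) and 0.76, 0.73 and 0.99 in females (standard error 0.23, limma adjusted p = 0.0155, 0.0185 and 0.00172). This rise was the smallest of the 5, and single libraries decided some calls: the male one at 3 weeks was lost without control replicate 3, control replicate 4 or 3-week replicate 1 (lowest value 0.53), the female one at 1 week without control replicate 1 (0.64), and the female one at 3 weeks without control replicate 1, control replicate 2 or 3-week replicate 3 (lowest value 0.61).

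*Pim3* (ENSMUSG00000035828, chromosome 15, 88746177 to 88749929, plus strand) did not rise with *Pim1*. In females it fell from 136, 143, 92.3 and 110 CPM in controls to 75.7, 68.2, 71.0 and 82.8 at 1 week, 71.1, 71.7, 66.1 and 68.5 at 3 weeks, and 57.8, 63.7, 83.3 and 108 at 6 weeks. At 1 and 3 weeks every female heart was below every control, and at 6 weeks replicate 4 overlapped them. The female changes were −0.67, −0.77 and −0.64 (standard error 0.20, limma adjusted p = 0.0149, 0.00556 and 0.0140). Without control replicate 2 the changes at 1 and 6 weeks were no longer called, nor was the change at 6 weeks without 6-week replicate 1 or 2 (smallest change −0.51), and scaled to library totals none of the 3 was called (−0.33, −0.42 and −0.25, limma adjusted p = 0.210, 0.107 and 0.329). Male controls held 65.9, 93.8 and 72.8, and the male values were 86.8, 80.0, 90.3 and 163 at 1 week, 83.8, 68.7, 72.9 and 72.1 at 3 weeks, and 51, 95.8 and 150 at 6 weeks, and none of the male changes was called (0.39, −0.05 and 0.23). The 2 highest male values came from replicate 4 at 1 week and replicate 4 at 6 weeks, which were also the male libraries with the most *Il11* (712 and 819 CPM). The first had the lowest column sum of all libraries (817395). The second had the most reads of any induced heart (49961134) and a column sum of 1165099, against 906746 and 962431 in the rest of its group. The part of depth and scaling in these values was not tested. The relation of *Pim3* with *Il11* in induced male hearts, given below, did not pass correction and rests on these 2 libraries.

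*Cebpb* and *Cebpd* encode C/EBPβ and C/EBPδ, leucine zipper factors that drive acute phase and inflammatory genes downstream of interleukin 6-type cytokines. *Cebpd* (ENSMUSG00000071637, chromosome 16, 15705150 to 15708895, plus strand) rose from 17.4, 20.3 and 20.5 CPM in male controls to 94.3, 56.8, 57.2 and 82.8 at 1 week, 55.1, 54.2, 29 and 32.5 at 3 weeks, and 45.5, 63.9 and 69.1 at 6 weeks. In females it rose from 29.2, 20.1, 17.3 and 23.8 in controls to 54.2, 42.9, 41.0 and 50.9 at 1 week, 40.5, 43.3, 44.4 and 40.5 at 3 weeks, and 40.3, 66.7, 65.9 and 63.1 at 6 weeks. The induced hearts of both sexes lay above their controls at every week, and the male values at 3 weeks split into a pair near 55 and a pair near 30. The log2 fold changes were 1.85, 1.07 and 1.58 in males (standard errors 0.25 to 0.26, limma adjusted p = 1.41e-05, 0.00368 and 0.000171) and 1.07, 0.91 and 1.36 in females (standard error 0.28, limma adjusted p = 0.00731, 0.0181 and 0.000684). The female call at 3 weeks was lost without control replicate 3, the lowest control (0.80, limma adjusted p = 0.0613).

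*Cebpb* (ENSMUSG00000056501, chromosome 2, 167530835 to 167532338, plus strand) was not called against control in either sex. Male controls held 56.9, 64.4 and 54.3 CPM, and the male values were 94.7, 61.1, 72.9 and 131 at 1 week, 93.5, 48.6, 67.2 and 63.2 at 3 weeks, and 63.4, 85.2 and 108 at 6 weeks. Female controls held 82.7, 71.3, 81 and 95.1, and the female values were 71.9, 61.5, 68.5 and 76.2 at 1 week, 62.7, 54.9, 63.4 and 57.5 at 3 weeks, and 68.1, 71.5, 81.8 and 115 at 6 weeks. The male changes were 0.56, 0.18 and 0.51 (limma adjusted p = 0.0788, 0.658 and 0.147) and the female ones −0.24, −0.46 and 0.00 (limma adjusted p = 0.371, 0.0722 and 0.989). The 4 female hearts at 3 weeks all lay below the controls, and the call there depended on how the spread was estimated: fitted on those 2 groups alone, the same −0.46 had an adjusted p = 0.00149 in limma. In males at 1 week it was called higher when scaled to library totals (0.91, limma adjusted p = 0.00500) and in DESeq2 (0.60, adjusted p = 0.0453).

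*Batf* (ENSMUSG00000034266, chromosome 12, 85733423 to 85755861, plus strand), an AP-1 family factor best known from T cells, B cells and dendritic cells, rose from very low values. Male controls held 0.450, 0.151 and 0.423 CPM (4 to 26 reads), against 1.91, 2.21, 1.70 and 1.35 at 1 week, 2.08, 1.64, 1.08 and 1.88 at 3 weeks, and 1.63, 1.45 and 2.03 at 6 weeks. Female controls held 0.301, 0.774, 0.700 and 0.388 (7 to 16 reads), against 1.24, 1.56, 1.67 and 1.17 at 1 week, 1.67, 2.01, 2.54 and 2.03 at 3 weeks, and 3.21, 3.18, 2.04 and 2.77 at 6 weeks. All induced hearts exceeded the controls of their sex. The log2 fold changes were 1.45, 1.36 and 1.40 in males (standard errors 0.22 to 0.23, limma adjusted p = 5.35e-05, 0.000121 and 0.000167) and 0.90, 1.32 and 1.68 in females (standard error 0.18, limma adjusted p = 0.000764, 9.43e-06 and 2.93e-07). The summed level of the 6 macrophage markers moved alongside it, from 135 to 221 CPM in male controls to 480 to 746 in induced male hearts, and from 110 to 162 in female controls to 551 to 765 in induced female hearts. T cell markers summed to 1.24 to 2.36 CPM in male controls and 2.58 to 9.45 in induced male hearts (3 of 5 markers listed), and to 1.40 to 2.60 and 3.91 to 14.3 in females (5 of 5), and none of the listed ones was at 0 throughout. B cell markers did not rise clearly. Their sums had male medians of 2.15 CPM in controls and 2.52, 1.30 and 2.67 at 1, 3 and 6 weeks (3 of 4 markers listed). The female medians were 2.73 in controls and 2.35, 3.66 and 3.25 at the same weeks (4 of 4). The part of immune cells in the rise of *Batf* and *Socs1* was not tested.

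**Figure D2:**
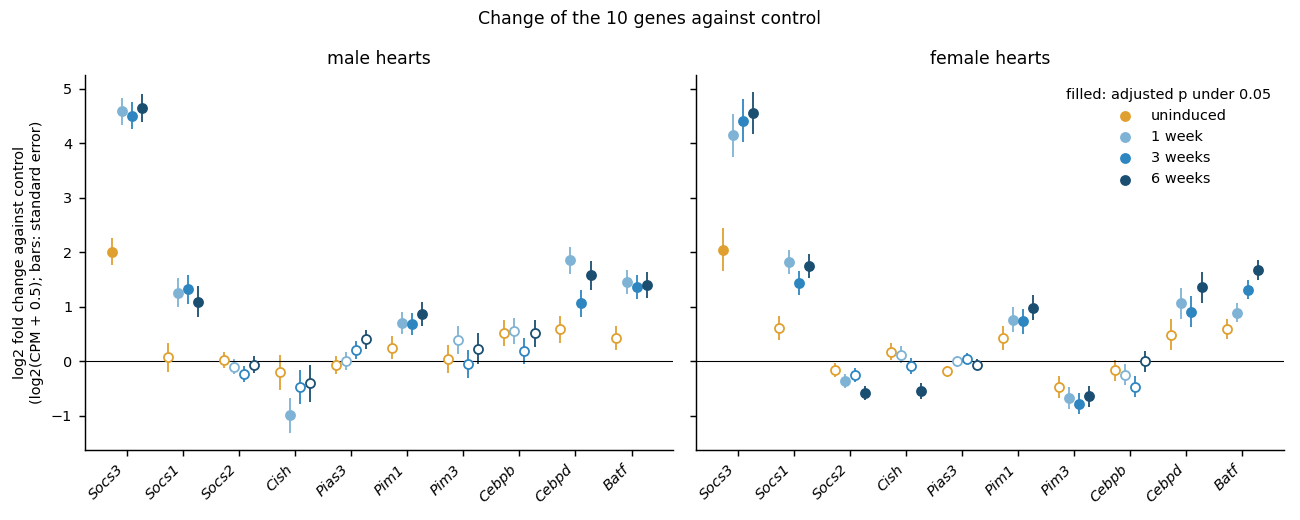
Log2 fold change against control (difference of group means on log2(CPM + 0.5), bars the standard error) of each gene in uninduced hearts and at 1, 3 and 6 weeks, males left and females right, with filled symbols where the limma adjusted p is under 0.05. *Socs3* lies between 4.15 and 4.65 at the 3 weeks and near 2 in uninduced hearts, and the next largest changes stay under 2.

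Hearts of the uninduced group, which carry the transgene and received no tamoxifen, were compared with controls, which received it, so transgene and tamoxifen cannot be told apart here. Of the 10 genes *Socs3* alone was called, in both sexes, where 0.597% of all male genes and 2.87% of all female genes were called. Uninduced males held 26.7, 11.9, 10.1 and 8.28 CPM and uninduced females 6.42, 13.8, 56.1 and 7.28 in replicates 1 to 4. All 8 lay above the controls of their sex, as did the uninduced hearts for 8.16% of male and 5.13% of female genes, and female replicate 3, which had the most *Il11* of the uninduced hearts (49.1 CPM), reached the level of hearts at 1 week. The log2 fold change was 2.01 in males (standard error 0.25, limma adjusted p = 9.48e-05) and 2.05 in females (standard error 0.39, limma adjusted p = 0.00449). Without female replicate 3 the female value was 1.39 with a smaller spread (limma adjusted p = 0.000129), and with the 2 female groups fitted alone it was not called (limma adjusted p = 0.135). The same female heart also held the most *Cebpd* of its group, 71.2 CPM against 15.9 to 31.1 in the others. The remaining genes had changes from −0.47 (*Pim3*, females) to 0.62 (*Socs1*, females), with adjusted p of at least 0.084 in limma. Of these genes, *Cebpb* and *Cebpd* in males (0.52 and 0.59) and *Batf* in females (0.60) also had every uninduced heart above every control.

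Set against the uninduced hearts, which share the genotype, *Socs3* rose again at every week, by 2.57, 2.49 and 2.64 in males and 2.1, 2.37 and 2.51 in females on the log2 scale (limma adjusted p of at most 0.000938). *Socs1* rose at every week too, by 1.19, 1.25 and 1.03 in males and 1.2, 0.82 and 1.14 in females (limma adjusted p of at most 0.0142), with the male call at 6 weeks lost without 6-week replicate 4 (0.86) and the female call at 3 weeks lost without uninduced replicate 1 (0.58). *Batf* was called higher at all 3 weeks in males (1.02, 0.93 and 0.97) and at weeks 3 and 6 in females (0.72 and 1.08). For *Cebpd* the male call came at weeks 1 and 6 (1.26 and 0.99) and the female call at week 6 (0.87, limma adjusted p = 0.0304), and without female uninduced replicate 3 it was also called in females at 1 and 3 weeks (0.97 and 0.82). The female call of *Cebpd* at 6 weeks was lost in 6 fits that left out 1 library, uninduced replicates 1, 2 and 4 and 6-week replicates 2, 3 and 4, with 0.56 as the lowest value. *Pim1* was called in males at 6 weeks alone (0.62, limma adjusted p = 0.0355), a call lost without uninduced replicate 1, 2 or 4 or 6-week replicate 1 or 4 (lowest value 0.48). *Cish* and *Socs2* fell in females at 6 weeks (−0.72 and −0.43, limma adjusted p = 0.00148 and 0.0191), and that of *Socs2* was lost without uninduced replicate 1 or 6-week replicate 2 (−0.36 for the first). *Pias3* was called in males at 6 weeks (0.48, limma adjusted p = 0.0432), a value that was 0.20 (limma adjusted p = 0.302) without male replicate 4 at 6 weeks and was lost in 8 further fits that left out 1 library. In all, 4, 3 and 6 of 10 were called in males, where 18.8%, 16.1% and 20.4% of all genes were, and 2, 3 and 6 in females, where 12.6%, 16.7% and 22.8% were. These comparisons and those with control share the induced libraries.

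Between the weeks, none of the 10 genes was called in males, where 0.0177%, 0.165% and 0% of all genes were called in limma between 1 and 3, 1 and 6, and 3 and 6 weeks, with 2710, 2615 and 1072 of 16931 genes at an unadjusted p under 0.05. The largest male change was that of *Cebpd*, from a mean of 72.8 CPM at 1 week to 42.7 at 3 weeks (−0.79, standard error 0.23, limma adjusted p = 0.147), which did not pass the test although it was as large as the called female changes. In females 2 genes were called between 1 and 6 weeks, where 1.03% of all genes were called: *Batf* rose by 0.78 (standard error 0.18, limma adjusted p = 0.0346) and *Cish* fell by 0.67 (standard error 0.15, limma adjusted p = 0.0308). The call of *Batf* was lost in 7 of the 20 fits that left out 1 library, with values from 0.72 to 0.90, and that of *Cish* in 5, with values from −0.79 to −0.57. With the 2 groups fitted alone neither was called. No gene of the 10 was called in females between 1 and 3 weeks (0.218% of all genes) or between 3 and 6 weeks (0%, with 2572 genes at an unadjusted p under 0.05). *Socs3* changed by −0.08, 0.06 and 0.14 in males and 0.27, 0.41 and 0.14 in females over the same 3 steps, with standard errors of 0.23 to 0.25 and 0.39. The female standard error includes the spread of the uninduced hearts. Female *Socs3* ran from 54.1 to 71.9 CPM at 1 week and from 77.7 to 84 at 6 weeks, a change that was not called.

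**Figure D3:**
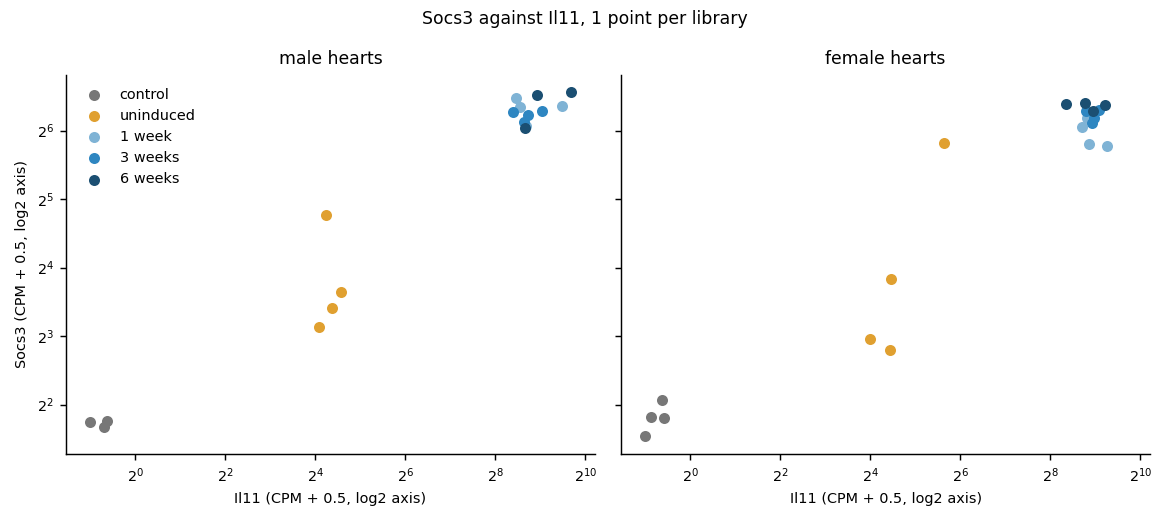
Value of *Socs3* against *Il11* (both CPM + 0.5 on log2 axes), 1 point per library, males left and females right, coloured by group. Control, uninduced and induced hearts form separate clusters, and within the induced cluster *Socs3* stays between 54.1 and 94.4 CPM while *Il11* runs from 328 to 819.

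Whether hearts with more *Il11* RNA held more of each gene was asked within the induced hearts alone, since the groups form separate clusters. Over 11 male and 12 female libraries and 20 relations, none passed correction by Pearson's r or by Spearman's rho in a permutation test of 100000 resamples, and 4 by r and 0 by rho had an unadjusted p under 0.05. The relations with the lowest adjusted p were those of *Cish* (r = 0.75, permutation p = 0.00690, adjusted 0.115, rho = 0.58 with permutation p = 0.0658, adjusted 0.548) and *Cebpb* (r = 0.72, permutation p = 0.0115, adjusted 0.115, rho = 0.54 with permutation p = 0.0934, adjusted 0.548) in males. They rest on the 2 libraries farthest from the median of *Il11*, without which r was 0.25 and 0.32. For *Pim3* in males r was 0.69 (permutation p = 0.0192, adjusted 0.128), with rho = 0.37 (permutation p = 0.262, adjusted 0.548). Without the same 2 libraries r of *Pim3* was −0.27. For *Socs3* r was 0.46 in males (permutation p = 0.155, adjusted 0.388) and −0.31 in females (permutation p = 0.331, adjusted 0.601), with rho = 0.36 (permutation p = 0.274, adjusted 0.548) and −0.22 (permutation p = 0.50, adjusted 0.736).

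Per kilobase of exon, taken as the union of all annotated exons and therefore a low estimate for genes with many isoforms such as *Socs2*, the order of the 10 genes differed between control and induced hearts. In male controls the mean levels per kilobase were 38.9 CPM for *Cebpb*, 29.2 for *Pim3*, 12.7 for *Cish*, 5.17 for *Cebpd*, 4.37 for *Pim1*, 3.15 for *Pias3*, 2.60 for *Socs2*, 0.790 for *Socs3*, 0.239 for *Batf* and 0.225 for *Socs1*. At 6 weeks in males *Socs3* stood at 23.5, after *Cebpb* (56.8) and *Pim3* (37.2) and before *Cebpd* (15.9), *Cish* (10.4) and *Pim1* (8.30). In females it went from 0.849 in controls to 23.0 at 6 weeks, again after *Cebpb* (55.9) and *Pim3* (29.5). *Batf* and *Socs1* remained the 2 lowest at 6 weeks, with 1.19 and 0.656 in males and 1.96 and 1.03 in females.

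The genes whose levels followed each of the 10 most closely were sought among the 16625 genes tested in both sexes, ranked by Pearson's r on log2(CPM + 0.5) over 18 male and 20 female libraries of all groups. For the genes that rose, these r values include the step from control to induced hearts. *Socs3* ran closest to the matrix metalloproteinase gene *Mmp3* (r = 0.99 in both sexes), the chemokine gene *Cxcl14* (0.98 in both) and *Serpina3i* (0.98 and 0.99). *Cebpd* ran closest to *Myc* (0.93 in males and 0.94 in females), and *Batf* to the leukocyte genes *Cd52* (0.94 and 0.93) and *Fcer1g* (0.94 and 0.92) and to *Rarres2* (0.92 and 0.93). *Socs1* ran closest to *Il3ra* (0.90 and 0.93), the interferon receptor gene *Ifnar2* (0.90 and 0.92) and *Pik3r5* (0.90 and 0.93), and *Pim1* to *Nrros* (0.84 and 0.88), *Arsi* (0.83 and 0.85) and the activin gene *Inhbb* (0.82 and 0.82). *Pim3* and *Cebpb* stood among each other's closest 3 genes (0.72 and 0.70), and their deviations from the group means had r = 0.73 over 18 male and 0.76 over 20 female libraries. *Pim3*, *Cebpb*, *Cish*, *Socs2* and *Pias3* had no neighbour above 0.80 in both sexes.

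The other members of the same families mostly stayed near control. None of *Socs4*, *Socs5*, *Socs6* and *Socs7* was called higher at any week, and *Socs5* (−0.28) and *Socs7* (−0.50) were lower in males at 1 week (limma adjusted p = 0.0398 and 0.0160). *Pim2* was not called. *Pias2*, another PIAS gene, had called changes of −0.46 at 1 week and −0.57 at 6 weeks in males and of −0.28 at 6 weeks in females. The C/EBP gene *Cebpa* rose at every week, by 1.45, 1.48 and 1.78 in males and 1.47, 1.68 and 1.96 in females, while *Cebpg* and *Cebpz* were not called. *Batf3* rose by 1.2, 1.32 and 1.42 in males and 0.88, 2.01 and 1.73 in females, and *Batf2* was not called.

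Upstream of the 10 genes, *Stat3* RNA rose by 0.80, 0.89 and 0.92 in males and 0.99, 0.70 and 0.91 in females, and by 0.74 in uninduced females (limma adjusted p = 0.0039). Among 14 tested JAK, STAT and receptor genes, 5, 6 and 6 were higher and 2, 0 and 1 lower in males at 1, 3 and 6 weeks, and 5, 6 and 6 were higher and 2 lower each time in females. Of all tested genes 18.9%, 13.2% and 16.2% in males and 15.3%, 16.8% and 21.7% in females were called higher. Those called lower were 14.6%, 8.1% and 10.9% in males and 13.1%, 14.5% and 21% in females. The higher ones of the 14 included the shared receptor subunit *Il6st* (gp130), which rose by 0.53, 0.69 and 0.53 in males and 1.02, 1.00 and 1.2 in females, and *Osmr*, the oncostatin M receptor, which rose by 1.79, 1.98 and 2.00 in males and 1.88, 1.80 and 1.89 in females. *Stat5b* fell in males at 1 week (−0.44) and in females at every week (−0.26, −0.37 and −0.26). Of 4 phosphatase genes that act on JAKs and STATs, *Ptpn6*, which is abundant in leukocytes, rose by 1.92, 1.91 and 1.69 in males and 1.83, 2.20 and 2.18 in females, *Ptpn1* rose by 0.84, 0.86 and 0.99 in males and 1.12, 1.04 and 1.48 in females, *Ptpn2* was called higher in males at 1 week (0.49) and in females at 6 weeks (0.52), and *Ptpn11* was lower in all 6 comparisons, by 0.39 to 0.63. The median log2 fold change of the 14 JAK, STAT and receptor genes was 0.09, 0.23 and 0.17 in males and 0.16, 0.34 and 0.11 in females, beside medians within 0.03 of 0 for all genes.

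Of 13 other genes known to be induced through STAT3, 11, 10 and 10 were higher in males and 10, 11 and 11 in females, with medians of 2.55, 2.09 and 2.37 in males and 2.42, 2.12 and 2.46 in females on the log2 scale. Of all tested genes 18.9%, 13.2% and 16.2% in males and 15.3%, 16.8% and 21.7% in females were called higher. The acute phase genes *Serpina3n* (8.34, 8.35 and 8.78 in males) and *Hp*, which encodes haptoglobin (6.78, 7.34 and 7.83 in males), rose most. *Timp1*, *Lcn2*, *Il4ra*, *Bcl3*, *Junb*, *Myc*, *Lrg1* and *Saa3* rose at every week in both sexes. The remaining genes were *Mcl1*, which was higher in males at 1 week (0.36) and in females at 3 and 6 weeks (0.30 and 0.28), *Ccnd1*, which fell in males at 1 and 6 weeks (−0.63 and −0.51), and *Bcl2l1*, which fell in females at every week (−0.91, −1.36 and −0.94) as *Pim3* did. In uninduced hearts 3 of the 13 were higher in males and 4 in females, *Serpina3n* and *Hp* in both. There 0.597% of all male genes and 2.87% of all female genes were called in either direction. This list, like the 10 genes, was put together with results of these data known, so its counts are a description.

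**Figure D4:**
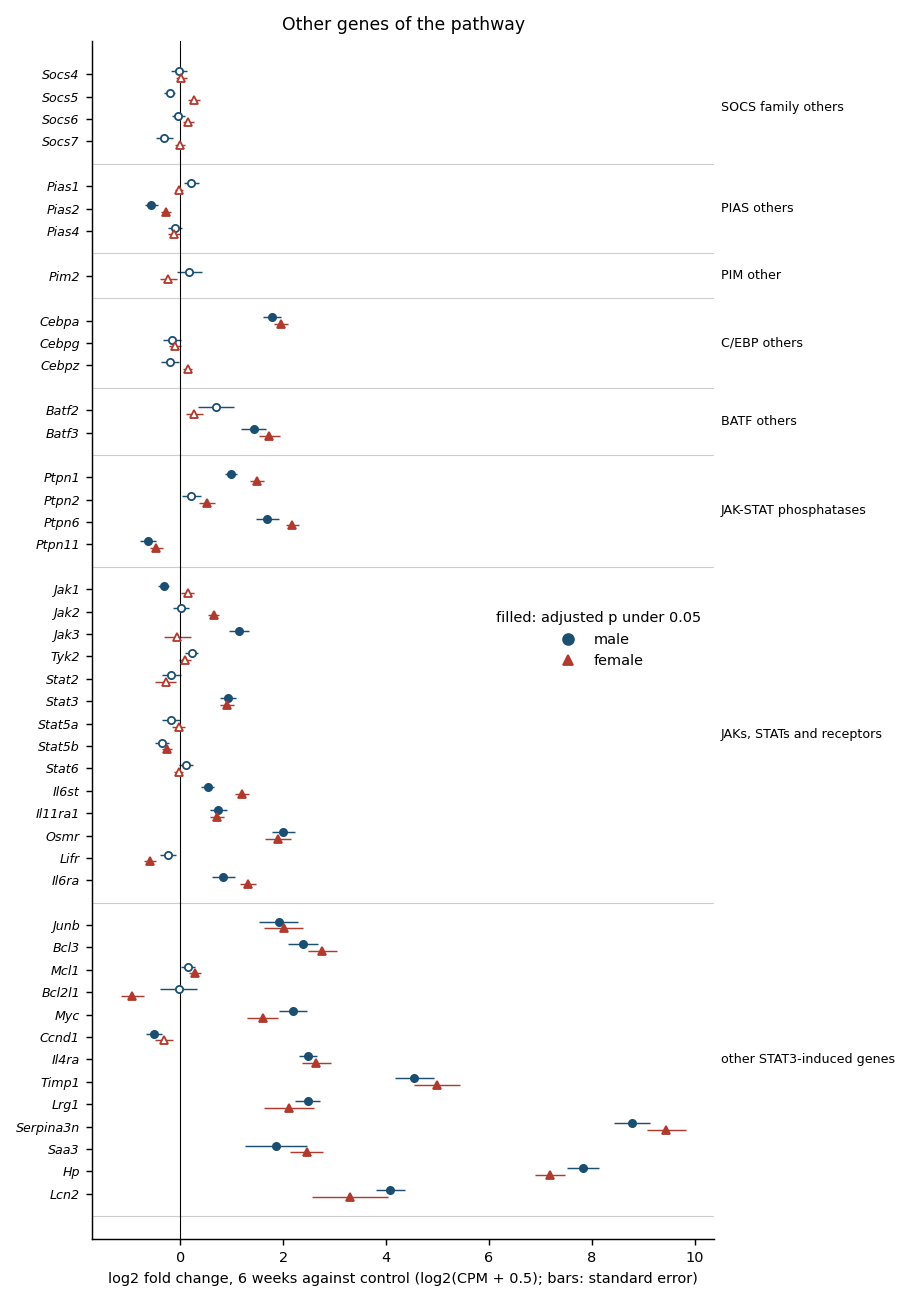
Log2 fold change at 6 weeks against control (log2(CPM + 0.5), bars the standard error) of the other genes of the pathway by list, circles for males and triangles for females, filled where the limma adjusted p is under 0.05. The other STAT3-induced genes reach 9.45 (*Serpina3n*, females), while *Socs4* to *Socs7* stay between −0.31 and 0.27.

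Genes of the growth hormone and STAT5 axis, the pathway in which *Socs2* and *Cish* are classical targets, were split. *Igf1* rose by 1.69, 1.61 and 1.72 in males and 1.60, 1.39 and 1.5 in females, and the prolactin receptor gene *Prlr* by 1.21, 1.37 and 1.53 and by 1.23, 1.03 and 1.15. The growth hormone receptor gene *Ghr* was lower in males at 1 week (−0.39). Glucocorticoid-induced genes, which vary with handling and time of day, were lower in 4, 5 and 5 of 6 in females and 1, 2 and 2 of 6 in males, and of 10 clock genes 2, 0 and 5 were lower in females and none in males. Of all tested genes 13.1%, 14.5% and 21% were called lower in females and 14.6%, 8.1% and 10.9% in males. The part of glucocorticoid-induced and clock genes in the female falls of *Pim3*, *Socs2* and *Cish* was not tested.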

How the data were processed

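PolyA libraries were aligned by the authors to GRCm39 with STAR and counted per gene with featureCounts, and the signal values that the authors deposited are called CPM. Columns sum to between 817395 and 1196278, and 100% of values lie within 0.001 of whole multiples of 1 step per library, so the read counts behind the deposited values were recovered. Groups were taken from the labels. The main test was limma 3.58.1 (R 4.3.3) with its trend option, on log2(CPM + 0.5), all libraries of a sex in 1 fit, for genes at 0.5 or more in at least 3 libraries, with Benjamini-Hochberg adjustment. The study's own test, edgeR, needs counts, so edgeR 4.0.16 and DESeq2 1.42.0 were run on recovered reads as alternatives, beside other pseudocounts, filters, scalings, a replicate block, fits of 2 groups and fits leaving out each library. The script was tested on simulated data. Replicates were separate mice and differed beyond counting noise (chi-square per gene of at least 6.67 over 54 pairs). Genes named are the 10, *Il11*, lists of related genes and cell type markers, and the 3 genes most like each. The members and lists were chosen with earlier results of these data known. Positions are from GENCODE on GRCm39. The difference in change between the sexes was not tested. In addition, 1 list and 1 further gene fixed for the pathway are not reported here.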

Additional observations from a re-analysis of the deposited data

Results flagged for a closer look

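Of 80 sets of 4 libraries (10 genes, 2 sexes and the groups with 4), 6 held a library beyond Dixon's limit, where chance gives about 1 in 20. *Socs3* was at 56.1 CPM in female uninduced replicate 3, and the other 3 uninduced females held 6.42 to 13.8. *Socs1* was at 4.36 in male replicate 1 at 3 weeks and at 5.11 in female replicate 2 at 6 weeks. *Pim3* was at 163 in male replicate 4 at 1 week. *Cebpd* was at 40.3 in female replicate 1 at 6 weeks and *Pias3* at 12.6 in female replicate 2 at 1 week, both below the rest of their groups.

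At 1 week 2 genes had changes of opposite sign in the sexes: *Pim3* with 0.39 in males and −0.67 in females, and *Cebpb* with 0.56 in males and −0.24 in females on the log2 scale. Every library of each group lay on its side of the mean of its controls. The difference itself was not tested, and only the female change of *Pim3* was called. Without male replicate 4 at 1 week the male changes were 0.16 for *Pim3* and 0.36 for *Cebpb* (limma adjusted p = 0.659 and 0.241).

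Of the 2 male libraries left out for contradicting labels, the one whose description says WT, and whose title and tags say 6 weeks, held *Il11* at 0.597 CPM and *Socs3* at 4.30. The one whose description says T6wk, and whose title and tags say control, held *Il11* at 511 and *Socs3* at 46.2. *Socs1* also followed the descriptions in these libraries, at 0.955 and 3.12. *Cebpd*, at 12.5 and 34.4, and *Batf*, at 0.398 and 0.944, did so less clearly. The library described as T6wk lay below every other male 6-week heart in *Socs3*, *Cebpd* and *Batf* (lowest 65.0, 45.5 and 1.45). The one described as WT lay above every other male control in *Il11* and *Socs3* (highest 0.147 and 2.90).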

How the results depend on the processing

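The numbers below are how many of the 10 genes were called. Against control, the rises of *Socs3*, *Socs1*, *Cebpd* and *Batf* at 1, 3 and 6 weeks kept their direction in every fit run. Leaving out 1 library at a time gave 5 to 6, 4 to 5 and 5 to 6 in males at 1, 3 and 6 weeks against control and 4 to 5, 3 and 3 to 6 against uninduced, and in females 1 to 2 in uninduced hearts, 5 to 7, 5 to 7 and 7 to 8 against control, 2 to 3, 2 to 4 and 4 to 7 against uninduced, 0 to 2 between 1 and 6 weeks and 0 to 1 between 3 and 6 weeks. Placing the 2 contradictory male libraries by their titles and tags gave 3 at 1 week against control and 0 in uninduced hearts, at 3 and 6 weeks, and in the 3 comparisons with uninduced hearts, while placing them by their descriptions changed no call. A minimum log2 fold change of 1 left 3, 3 and 4 in females against control, 1 and 3 in females at 3 and 6 weeks against uninduced, 2 in males at 6 weeks against uninduced and 0 between 1 and 6 weeks in females. In uninduced females a pseudocount of 0.1 and library totals each gave 2, adding *Batf*, and the 2 groups fitted alone gave 0. Between 1 and 6 weeks in females a pseudocount of 0.1 and edgeR gave 1 each, and the 2 groups alone gave 0. Scaling to library totals, chosen after the data were seen, left 177 of 200 values on their side of the threshold and with their sign, and turned *Pias3* in females, 0.334 at 1 week and 0.323 at 6 weeks against −0.00 and −0.06. A pseudocount of 2, no filter, a filter at 1 in 4 libraries and median-of-ratios scaling changed none of 200. DESeq2 gave no adjusted p for *Socs3* in females. Same-numbered libraries did not deviate together on average (mean r 0.0132 in males and 0.0255 in females), and the main test did not pair them. Single pairs ran from −0.13 to 0.26 in males and from −0.34 to 0.56 in females. Of them 4 of 33 and 12 of 40 were over 0.1, so the mean cannot tell whether some numbers go together. With the replicate block the counts were 1, 6, 5 and 5 in males and 1, 7, 7 and 8 in females against control and 4, 3 and 4 and 2, 3 and 6 against uninduced, and 197 of 200 calls were the same under the block. *Batf* and *Socs1* rest on 4 to 55 reads in control libraries, which limits the precision of their fold changes.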
